A study of Homo sapiens with 6 samples.

Results

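The 9 genes described here encode enzymes that make, recycle or destroy deoxynucleotides, the building blocks of DNA. They were taken by symbol from the deposited count table, and all 9 (TYMS, RRM1, RRM2, RRM2B, TK1, DTYMK, DUT, DCK and SAMHD1) were found once each among its 29538 genes. All 9 also passed the filter on low counts that left 16412 genes for testing. The cells were MDA-MB-231, an established human breast cancer line, and their poly(A) RNA was sequenced from directional libraries. The 3 siBYSL cultures received 160 pmol per well of SI-BYSL-Homo-838, an siRNA against BYSL, which encodes bystin, a factor needed to mature the small ribosomal subunit. The 3 siNC cultures received the same amount of a negative-control siRNA, whose sequence is not given in the sources used here. Both groups were transfected with Lipofectamine RNAiMAX and harvested 48 h later. Only 1 cell line and 1 siRNA against BYSL were used, so an effect of losing bystin and an effect of this particular siRNA cannot be told apart.

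Cells obtain deoxynucleotides by a de novo and by a salvage route. In the de novo route, ribonucleotide reductase removes an oxygen from ribonucleoside diphosphates; its catalytic subunit is RRM1, and its small subunit is either RRM2, which dividing cells make in S phase, or RRM2B, which supplies resting or DNA-damaged cells. Thymidylate is then made from dUMP by thymidylate synthase, TYMS, the target of 5-fluorouracil, while DUT breaks down dUTP and so both provides dUMP and keeps uracil out of DNA. In the salvage route, the kinases TK1 and DCK phosphorylate imported nucleosides, and DTYMK, which phosphorylates dTMP, serves both routes. SAMHD1 works in the opposite direction and hydrolyses deoxynucleoside triphosphates; it also restricts HIV-1 in myeloid cells.

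BYSL itself stood at 15.9, 15.7 and 17.4 CPM (counts scaled to a common library size, with TMM factors) in siBYSL 1 to 3, against 104, 94.5 and 101 CPM in siNC 1 to 3, so every library followed its label. Library totals ran from 27754883 to 32088817 counts in siBYSL and from 28606048 to 30476744 in siNC. One library, siBYSL 3, was unlike its group: a chi-square of counts, divided by its degrees of freedom, came to 20.1 with siBYSL 1 and 12.3 with siBYSL 2, but to 3.21 between siBYSL 1 and 2 and to 2.39 to 4.43 between siNC libraries. The mesenchymal markers VIM, CD44, AXL, MSN and CAV1 were abundant, summing to 4450 to 4655 CPM in siBYSL and 5266 to 5343 CPM in siNC, with 1 higher and 4 lower in siBYSL. Of 7 luminal and epithelial markers, the oestrogen receptor gene ESR1 had 0 to 3 counts per siBYSL library and 0 to 2 per siNC library, and PGR had 6 to 11 and 5 to 10. CDH1 (9.18 ± 1.1 CPM in siBYSL and 4.48 ± 0.10 CPM in siNC, SD, n = 3 each) and EPCAM (20.9 and 14.4 CPM) rose. GATA3 (14.1 and 13.3 CPM), KRT8 and KRT18 did not pass the test. The keratin genes were abundant: KRT8 averaged 719 ± 64 CPM in siBYSL and 705 ± 25 CPM in siNC, and KRT18 631 ± 84 and 586 ± 22 CPM. Of the blood and endothelial markers, PTPRC and VWF had at most 9 counts in any library, CD3E was not found in the table, and PECAM1 was at 6.48 ± 0.11 CPM in siBYSL and 5.32 ± 0.45 CPM in siNC.

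The sequences below show where the knockdown reagent and known regulatory motifs touch these genes. The antisense or guide strand of the siRNA against BYSL is given with its seed, bases 2 to 8, in capitals, because pairing of a seed with a 3′ UTR can lower other transcripts. Among the longest annotated 3′ UTRs of the 9 genes (GENCODE 29, GRCh38), only that of RRM2 held the matching heptamer GCTGAAT, and the window around it, chr2:10131269-10131297 on the plus strand, is shown with the heptamer in capitals.
siBYSL guide strand: uAUUCAGCaacgucaucuctt
RRM2 3′ UTR site: gtctctcattaGCTGAATaatgtgaggat

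The RRM2 site begins at base 1894 of the 2033 bases of the 3′ UTR of transcript RRM2-212 and lies in all 4 of the coding transcripts of RRM2 with an annotated 3′ UTR. The base after the heptamer is an A, so it is also a match to the octamer that adds position 1. The heptamer was found in 1550 (11.9%) of the 13069 tested genes for which a 3′ UTR was annotated; the share was 19.1% among genes lower in siBYSL, 9.03% among genes higher and 10.2% among genes not called. The heptamer that pairs with the seed of the passenger (sense) strand, GTCATCT, was present in the 3′ UTR of RRM1 alone among the 9 genes, and in 12.1% of all genes with a 3′ UTR.

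RefSeq promoter windows (GRCh38.p14, 250 bases before to 50 after each annotated start) matched 8 of the 9 genes (not RRM2B), some with several starts. They were searched on both strands for an E2F-type motif, TTTNNCGC, and for the CCAAT box bound by NF-Y, since E2F factors and NF-Y are known to act on many S-phase genes. The windows shown hold the matches of the members whose levels the results turn on, with the motif in capitals; positions count from the annotated start.
TYMS, E2F type on the reverse strand, -39 to -32, chr18:657603-657632: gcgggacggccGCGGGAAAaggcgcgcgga
RRM2, CCAAT, -123 to -119, chr2:10122605-10122631: gcaaggcgcagCCAATgggaagggtcg
RRM2, CCAAT, -93 to -89, chr2:10122635-10122661: gcatggcacagCCAATgggaagggccg
RRM2, CCAAT, -66 to -62, chr2:10122662-10122688: gggcaccaaagCCAATgggaagggccg
TK1, CCAAT on the reverse strand, -77 to -73, chr17:78187114-78187140: gccgggcgctgATTGGccccatggcgg
TK1, CCAAT on the reverse strand, -46 to -42, chr17:78187083-78187109: gccggctcgtgATTGGccagcacgccg
SAMHD1, CCAAT, -49 to -45, chr20:36951742-36951768: tgcgcaggaggCCAATaggctgccaat

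TYMS and RRM2 are on the plus strand and TK1 and SAMHD1 on the minus strand, and each window is written in the direction of transcription. The 3 CCAAT boxes of RRM2 shown sit in near-repeated surroundings, and another lies near the upstream end of the window of a further annotated start. SAMHD1 has another CCAAT box 11 bases downstream, at -38 to -34, which closes the window shown, in lower case. RRM2B, the member that rose, had no window and was not searched. The 8 other genes have 13 windows. E2F-type matches were found in 3 of these (in TYMS, DUT and DCK), beside 6.89% of all 35116 windows. CCAAT was found in 6 windows of 5 genes (RRM2, TK1, SAMHD1, DTYMK and RRM1), beside 34.6% of all windows. The cell-cycle element TTTGAA or TTCGAA, was found in 3 windows (in DTYMK, DUT and RRM1), beside 16.4% of all windows. No motif among these was in the windows of all 4 genes that were lower in siBYSL: RRM2, TK1 and SAMHD1 hold CCAAT and TYMS does not. A match is a description of letters, and binding was not measured.

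Of the 9 genes, 4 were lower in siBYSL (SAMHD1, TYMS, RRM2 and TK1), 1 was higher (RRM2B) and 4 did not pass the test (RRM1, DTYMK, DUT and DCK), with edgeR's quasi-likelihood test and a Benjamini-Hochberg adjusted p under 0.05 over all genes tested. Changes were common in these cells: 36.9% of all genes tested were called, 18.5% higher and 18.4% lower, so 5 of 9 members called (55.6%) stands beside 36.9% and 4 of 9 lower (44.4%) beside 18.4%. The median log2 fold change of the 9 genes, siBYSL over siNC, was -0.17, beside 0.0066 for all genes tested. The 9 genes were chosen with earlier results of these data known, so these shares and the median are a description only. The groups did not overlap for 7 of the 9 genes, as for 49.6% of all genes. The split of calls over all genes depends on the scaling: 50.04% of called genes were higher with TMM factors and 67.4% with library totals alone, which shifted the median of all genes to 0.085. In RNA from whole cultures, fewer cells expressing a gene and less RNA per cell cannot be told apart.

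**Figure D1:**
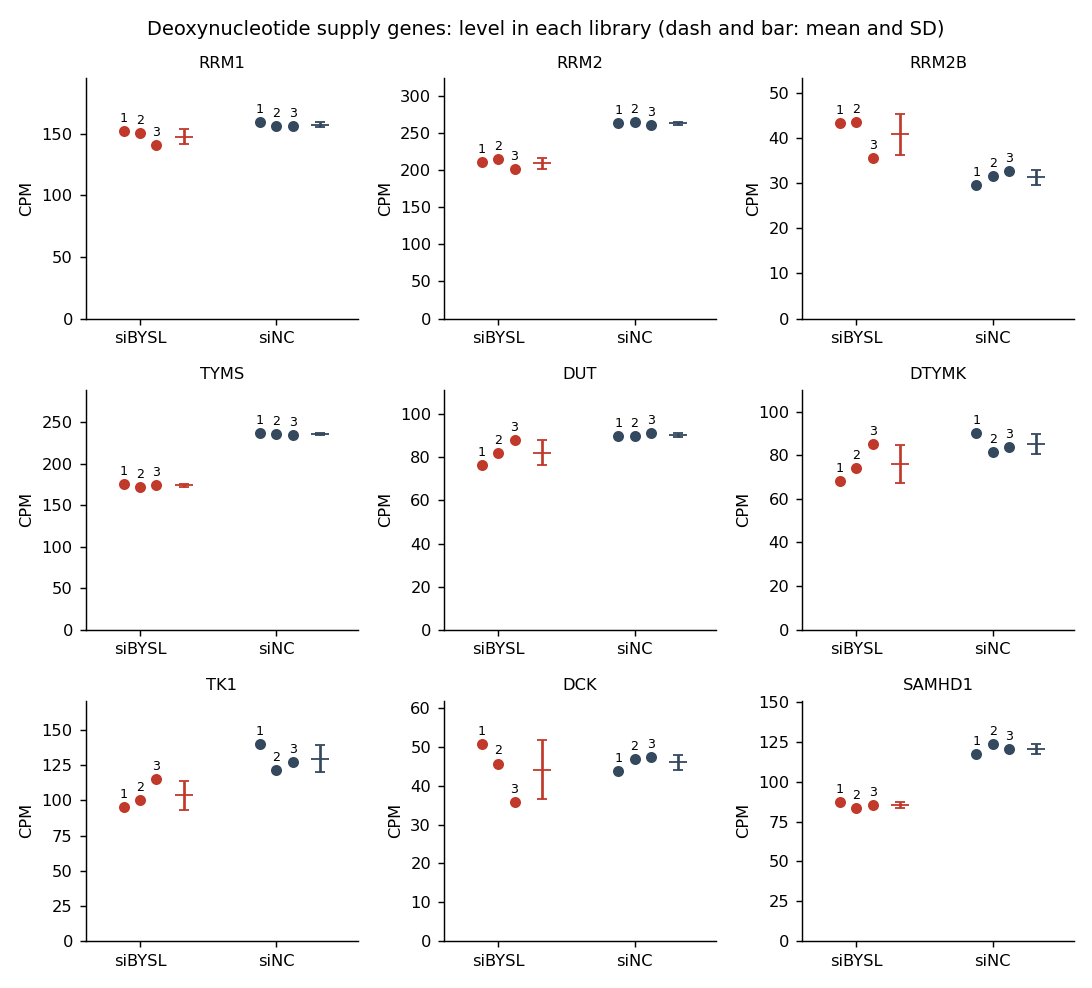
Level of each of the 9 genes in CPM (vertical axes, from 0) in the 3 siBYSL and 3 siNC libraries; points are libraries, numbered by replicate, and the dash with its bar is the mean and SD. SAMHD1, TYMS, RRM2 and TK1 lie lower and RRM2B higher in every siBYSL library than in any siNC library, while the groups overlap for DTYMK and DCK.

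The catalytic and the main small subunit of ribonucleotide reductase did not move alike. RRM2 (ENSG00000171848.16, chr2:10120698-10131419, plus strand) stood at 211, 215 and 201 CPM in siBYSL 1 to 3, against 263, 265 and 261 CPM in siNC 1 to 3. Every siBYSL library was below every siNC library, by a margin many times the spread within siNC. RRM2 thus averaged 209 ± 7.4 CPM in siBYSL and 263 ± 2.2 CPM in siNC (SD, n = 3 each), a log2 fold change of -0.33 (SE 0.049, edgeR adjusted p = 0.000437). It is the member that carries the guide-seed heptamer shown above; the part of that site in the fall was not tested. AC007240.1, annotated over RRM2 on the same strand, was not found in the table.

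RRM1 (ENSG00000167325.15, chr11:4094707-4138876, plus strand), the catalytic subunit, stood at 152, 150.3 and 141 CPM in siBYSL 1 to 3, against 160, 156 and 156 CPM in siNC 1 to 3. The groups did not overlap, but the gap was small beside the spread of the siBYSL libraries, of which siBYSL 3 was the lowest. Its log2 fold change of -0.091 (SE 0.050, edgeR adjusted p = 0.176) did not pass the test.

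RRM2B (ENSG00000048392.12, chr8:102204502-102239118, minus strand), the alternative small subunit, was the single member that rose. It stood at 43.2, 43.5 and 35.4 CPM in siBYSL 1 to 3, against 29.5, 31.6 and 32.6 CPM in siNC 1 to 3. The groups did not overlap, though siBYSL 3 was only just above the highest siNC library. The means were 40.7 ± 4.6 CPM in siBYSL and 31.2 ± 1.6 CPM in siNC (SD, n = 3 each), 1.30-fold higher, with a log2 fold change of 0.38 (SE 0.084, edgeR adjusted p = 0.00484). CDKN1A, which encodes the cell-cycle inhibitor p21, moved the other way from RRM2B, at 37.7 ± 0.78 CPM in siBYSL and 129 ± 1.1 CPM in siNC (SD, n = 3 each), with a guide-seed heptamer in its 3′ UTR. TP73, a transcription factor gene, rose at a low level, 2.59 ± 0.19 CPM in siBYSL and 1.52 ± 0.29 CPM in siNC (edgeR adjusted p = 0.00601).

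Per kilobase of exon (GENCODE 29 exons, merged per gene), RRM2B was the least abundant of the 9 genes, at 7.91 ± 0.89 CPM per kb in siBYSL and 6.07 ± 0.31 in siNC. RRM2 stood at 54.2 ± 1.9 CPM per kb in siBYSL and 68.1 ± 0.56 in siNC. Of the summed level of both small subunits, RRM2B made up 13.3%, 13.2% and 11.7% in siBYSL 1 to 3, against 7.75%, 8.21% and 8.58% in siNC 1 to 3. RRM2 therefore remained the main small-subunit transcript in every library, with a larger share from RRM2B in all siBYSL libraries.

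In thymidylate synthesis, TYMS fell and DUT, which acts just before it, did not pass the test. TYMS (ENSG00000176890.16, chr18:657604-673578, plus strand) stood at 175.0, 172 and 174 CPM in siBYSL 1 to 3, against 237, 236 and 235 CPM in siNC 1 to 3. These were the tightest replicates among the 9 genes, with a coefficient of variation of 0.77% in siBYSL and 0.45% in siNC. TYMS fell to 73.7% of its siNC level, a log2 fold change of -0.44 (SE 0.045, edgeR adjusted p = 4.3e-05). Per kilobase it was the most abundant member in siBYSL (105 ± 0.81 CPM per kb) as in siNC (142 ± 0.64).

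TYMS overlaps ENOSF1 and TYMSOS, both on the opposite strand. ENOSF1 held 16.4% as many counts as TYMS, averaged 35.1 ± 1.4 CPM in siBYSL and 31.9 ± 1.6 CPM in siNC and did not pass the test (log2 fold change 0.14, edgeR adjusted p = 0.117). TYMSOS averaged 4.26 ± 1.0 CPM in siBYSL and 4.47 ± 0.28 CPM in siNC and did not pass either (edgeR adjusted p = 0.776). The libraries keep strand, but whether counting used it is not given in the sources used here.

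DUT (ENSG00000128951.14, chr15:48331011-48343373, plus strand) stood at 76.4, 81.8 and 87.9 CPM in siBYSL 1 to 3, against 89.9, 89.8 and 91.3 CPM in siNC 1 to 3. Every siBYSL library was below every siNC library, but siBYSL 3 came close, and the log2 fold change of -0.14 (SE 0.059, edgeR adjusted p = 0.0879) did not pass the test. Without siBYSL 3 it was -0.19 and passed (edgeR adjusted p = 0.00114). Counts of the DUT pseudogenes DUTP2 and DUTP6 came to under 1% of those of DUT, at 0.0066% and 0.37%.

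DTYMK (ENSG00000168393.13, chr2:241675742-241686991, minus strand), the kinase of the following step, stood at 68.1, 73.9 and 85.3 CPM in siBYSL 1 to 3, against 90.2, 81.6 and 83.7 CPM in siNC 1 to 3. Here siBYSL 3 lay inside the range of the siNC libraries and the other siBYSL libraries lay below it. The log2 fold change was -0.17 (SE 0.079, edgeR adjusted p = 0.119) with all libraries, and -0.26 (edgeR adjusted p = 0.000208) without siBYSL 3. With no filter on low counts DTYMK also passed, at a log2 fold change of -0.18 (edgeR adjusted p = 0.0262).

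Of the salvage kinases, TK1 fell and DCK did not pass the test. TK1 (ENSG00000167900.12, chr17:78174075-78187233, minus strand), the cytosolic thymidine kinase whose level peaks in S phase, stood at 95.5, 100.2 and 115 CPM in siBYSL 1 to 3, against 140.1, 122 and 128 CPM in siNC 1 to 3. The groups did not overlap, with siBYSL 3 the nearest to siNC. TK1 averaged 104 ± 10.2 CPM in siBYSL and 129.8 ± 9.4 CPM in siNC (SD, n = 3 each), and its log2 fold change of -0.33 (SE 0.076, edgeR adjusted p = 0.00684) passed the test.

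DCK (ENSG00000156136.10, chr4:70992538-71030914, plus strand), which phosphorylates deoxycytidine and activates drugs such as cytarabine and gemcitabine, stood at 50.8, 45.7 and 35.8 CPM in siBYSL 1 to 3, against 43.9, 47.0 and 47.4 CPM in siNC 1 to 3. Library siBYSL 1 was above and siBYSL 3 below all siNC libraries, and the coefficient of variation of 17.3% in siBYSL was the widest among the 9 genes. The log2 fold change of -0.063 (SE 0.11, edgeR adjusted p = 0.673) did not pass, and its sign turned, to 0.064 without siBYSL 3 and to 0.017 with library totals. MOB1B, which overlaps DCK on the same strand, held about as many counts as DCK and did not pass the test (48.1 ± 3.1 CPM in siBYSL and 43.3 ± 2.4 CPM in siNC, edgeR adjusted p = 0.104).

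SAMHD1 (ENSG00000101347.11, chr20:36889773-36951901, minus strand), the enzyme that destroys deoxynucleoside triphosphates, fell by the widest margin of the 9 genes. It stood at 87.3, 83.7 and 85.6 CPM in siBYSL 1 to 3, against 118, 124 and 121 CPM in siNC 1 to 3. The libraries of each group lay close together and the groups were well apart. SAMHD1 fell to 70.8% of its siNC level, a log2 fold change of -0.50 (SE 0.049, edgeR adjusted p = 3.2e-05). The fall of a gene for deoxynucleotide breakdown thus stood beside falls of genes for their synthesis. Among all genes tested, SAMHD1 lay at the 6.45th percentile of log2 fold change, TYMS at the 8.22nd, RRM2 at the 13.4th and TK1 at the 13.9th, counted from the lowest, and RRM2B at the 84.0th.

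**Figure D2:**
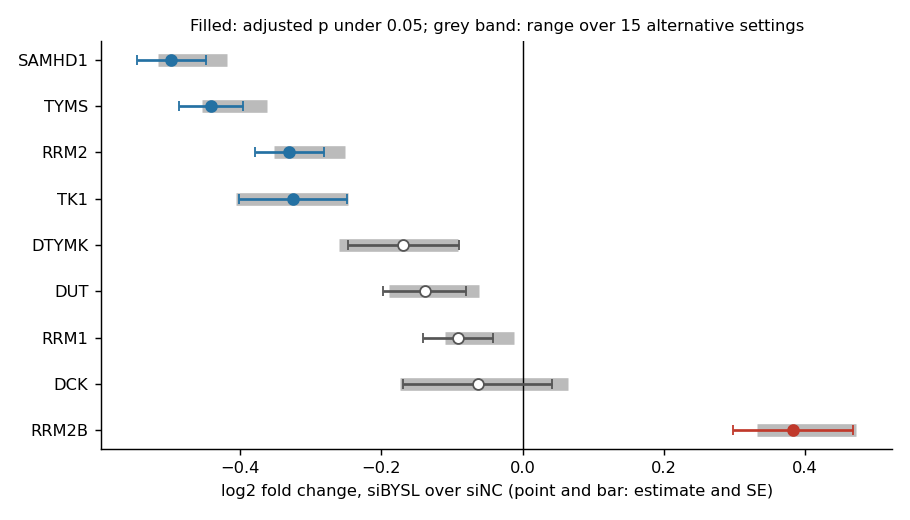
Log2 fold change of each gene, siBYSL over siNC (horizontal axis), with its SE; filled points passed an adjusted p under 0.05, and the grey band is the range over 15 alternative settings. SAMHD1, TYMS, RRM2 and TK1 stay below 0 and RRM2B above 0 across the whole band, whereas the band of DCK spans 0.

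Ordered by level per kilobase in siNC, TYMS came first (142 ± 0.64 CPM per kb), followed by TK1 (75.2 ± 5.5), DTYMK (69.1 ± 3.6), RRM2 (68.1 ± 0.56), RRM1 (46.8 ± 0.63), DUT (29.2 ± 0.27), SAMHD1 (19.6 ± 0.49), DCK (16.4 ± 0.69) and RRM2B. The values of TK1 and DTYMK overlapped, as did those of DTYMK and RRM2; every other gene was above the next in all siNC libraries. In siBYSL, TYMS was again first, and the values of DTYMK (61.5 ± 7.1 CPM per kb), TK1 (60.0 ± 5.9) and RRM2 overlapped. In siBYSL DCK (15.7 ± 2.7 CPM per kb) and SAMHD1 (13.9 ± 0.29) overlapped too, with DCK the higher in its mean, whereas in siNC every SAMHD1 value was above every DCK value.

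Ratios of CPM between members of 1 library do not depend on how libraries are scaled, and 5 were computed. The ratio of RRM2 to RRM1 in CPM was 1.39, 1.43 and 1.42 in siBYSL 1 to 3, against 1.65, 1.70 and 1.67 in siNC 1 to 3, so the main small subunit fell relative to the catalytic subunit in every library. RRM2B per RRM2 was 0.205, 0.203 and 0.177 in siBYSL 1 to 3, against 0.112, 0.120 and 0.125 in siNC 1 to 3, a 1.63-fold difference between geometric means. SAMHD1 per RRM1 was 0.575, 0.557 and 0.608 in siBYSL 1 to 3, against 0.737, 0.794 and 0.771 in siNC 1 to 3. For each of these 3 ratios the groups did not overlap, and a two-sided exact permutation test gave p = 0.1, the smallest that 3 against 3 libraries allow (0.167 after Benjamini-Hochberg adjustment over the 5 ratios).

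The ratio of TK1 to TYMS, salvage against de novo supply of thymidylate, was 0.546, 0.582 and 0.661 in siBYSL 1 to 3, against 0.591, 0.517 and 0.543 in siNC 1 to 3, and the groups overlapped (exact permutation p = 0.4, adjusted p = 0.5). DCK per TK1 was 0.532, 0.457 and 0.311 in siBYSL 1 to 3, against 0.313, 0.386 and 0.372 in siNC 1 to 3, again with overlap (exact permutation p = 0.5, adjusted p = 0.5). Both ratios moved with single libraries. Without siBYSL 3, DCK per TK1 was higher in both remaining siBYSL libraries than in every siNC library, by 0.47 on the log2 scale, beside 0.25 with all libraries and 0.084 without siBYSL 1. Without siNC 1, TK1 per TYMS was likewise higher in every siBYSL library, by 0.17, beside 0.11 with all libraries and 0.037 without siBYSL 3. In each case the exact permutation test gave p = 0.2, the smallest that 2 against 3 libraries allow.

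**Figure D3:**
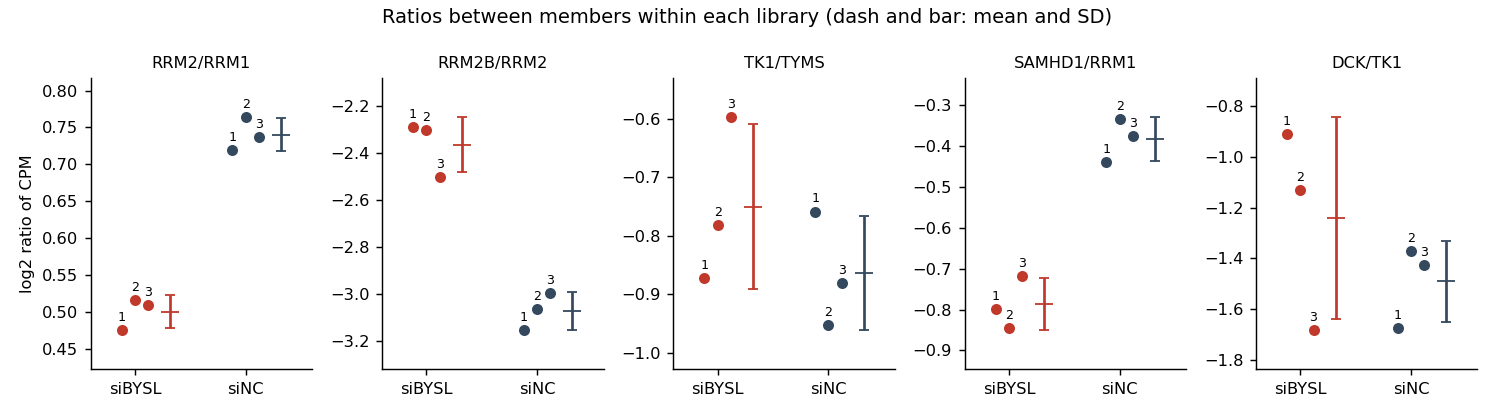
Ratios between members on the log2 scale (vertical axes, which do not start at 0) in each siBYSL and siNC library, with mean and SD. RRM2/RRM1 and SAMHD1/RRM1 lie lower and RRM2B/RRM2 higher in all siBYSL libraries, while TK1/TYMS and DCK/TK1 overlap between the groups.

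Library siBYSL 3 departed from siBYSL 1 and 2 in 5 of the 9 genes more than in the others, 2 of them called (TK1 and RRM2B) and 3 not (DTYMK, DUT and DCK). On the log2 CPM scale, siBYSL 3 minus the mean of siBYSL 1 and 2 was 0.27 for DTYMK, 0.23 for TK1 and 0.15 for DUT, but -0.29 for RRM2B and -0.43 for DCK. It was 0.0033 for TYMS and 0.0024 for SAMHD1, and -0.10 for RRM1 and -0.087 for RRM2. Across protein-coding genes the same difference went with exon length: its median was 0.25 over 1266 genes under 1500 bases, 0.094 over 2520 genes of 1500 to 2500 bases, -0.027 over 3559 genes of 2500 to 4000 bases, -0.097 over 2987 genes of 4000 to 6000 bases and -0.15 over 2975 longer genes.

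DTYMK (1232 bases) and TK1 (1727 bases) are short and RRM2B (5148 bases) is long, and their departures had the sign of their length class, whereas TYMS (1662 bases) and SAMHD1 (6161 bases) had almost none and DUT (3098 bases) had the opposite sign. DCK (2813 bases) departed far more than its class. Against the siNC mean, genes under 1500 bases had a median of -0.20 in siBYSL 1, -0.11 in siBYSL 2 and 0.090 in siBYSL 3. A similar, smaller difference set siNC 1 (0.055) apart from siNC 2 (-0.060) for these short genes, and siNC 1 was likewise the highest siNC library for TK1 and DTYMK and the lowest for DCK and RRM2B. The part of this length pattern in the values of the 9 genes was not tested. Without siBYSL 3, 6 members were lower and 1 was higher; without any other single library the counts stayed at 4 lower and 1 higher.

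**Figure D4:**
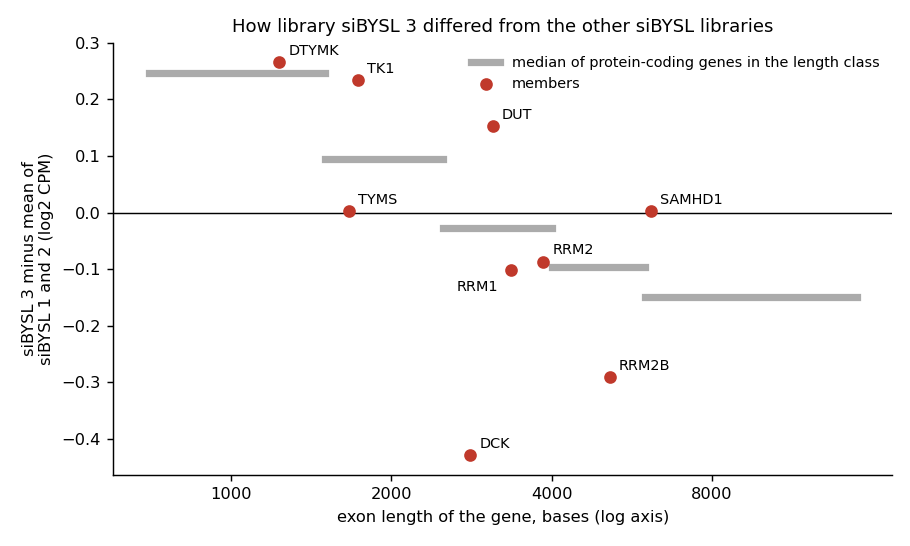
Difference of library siBYSL 3 from the mean of siBYSL 1 and 2 in log2 CPM (vertical axis) against exon length in bases (log axis); red points are the 9 genes, and grey bars are medians of protein-coding genes in 5 length classes, the outer 2 of which are open-ended. DTYMK and TK1 lie high and DCK and RRM2B low, while TYMS and SAMHD1 lie at 0.

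The other genes that feed or drain the nucleotide pools were taken from 7 lists. Of 76 tested genes, 10 were higher (13.2%, beside 18.5% of all genes tested), 27 were lower (35.5%, beside 18.4%) and 39 did not pass. All lists used here were chosen with earlier results of these data known, so their shares are a description only. In purine synthesis, 6 of 13 fell and 1 rose, with a list median of -0.16. PPAT, the committed step, fell by 0.41 on the log2 scale (29.2 ± 4.1 CPM in siBYSL and 38.7 ± 0.67 CPM in siNC), as did GART (-0.34), PAICS (-0.32), PRPS1 (-0.26), PFAS (-0.23) and IMPDH2 (-0.17). ADSS1 rose by 0.84 at a low level, 1.52 ± 0.39 CPM in siBYSL and 0.851 ± 0.15 CPM in siNC.

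In pyrimidine synthesis, 2 of 5 genes fell and none rose, with a median of -0.063. The CTP synthases CTPS1 (-0.23) and CTPS2 (-0.31, with 2 guide-seed heptamers) passed. CAD, DHODH (-0.057, with 1 guide-seed heptamer) and UMPS (0.18, with 3) did not. Of 11 genes that supply folate to TYMS, 4 fell and 0 rose (median -0.12). These were SHMT2 (-0.57), MTHFD2 (-0.49) and MTHFD1L (-0.17), which act in mitochondria, and FPGS (-0.17).

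Nucleoside and nucleotide kinases went both ways, with 5 of 19 higher and 6 lower (median -0.10). TK2, the mitochondrial thymidine kinase, rose while its cytosolic counterpart TK1 fell: it stood at 38.2 ± 0.65 CPM in siBYSL and 26.2 ± 1.6 CPM in siNC (SD, n = 3 each; log2 fold change 0.54, SE 0.064, edgeR adjusted p = 9.7e-05). DGUOK, the mitochondrial deoxyguanosine kinase, did not pass (-0.069). CMPK1, which phosphorylates CMP, UMP and dCMP, rose by 0.24, as did the adenylate kinase genes AK1 (0.31), AK3 (0.22) and AK4 (0.25). Of these, AK3 carries a guide-seed heptamer. UCKL1 (-0.79), ADK (-0.60), NME1 (-0.35), UCK2 (-0.29) and AK6 (-0.23) were among those that fell, and UCKL1, ADK and NME1 carry a guide-seed heptamer. NME1 and its neighbour NME2 are near-identical in parts and can share reads.

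Of 8 tested genes of base salvage and deamination, 3 fell and 1 rose (median -0.19). DCTD, which deaminates dCMP to the dUMP that TYMS uses, fell to 55.5 ± 3.5 CPM in siBYSL, against 98.7 ± 1.6 CPM in siNC (SD, n = 3 each; log2 fold change -0.83, SE 0.058, edgeR adjusted p = 3.8e-06), and carries a guide-seed heptamer. PNP, which splits purine nucleosides, fell by 0.98 (78.1 ± 4.6 CPM in siBYSL and 154 ± 7.4 CPM in siNC) without such a heptamer, and HPRT1 fell by 0.27; ADA rose by 0.43. MTAP had 0 to 1 counts per siBYSL library and 1 to 2 per siNC library and was not tested.

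Of 13 genes of nucleotide breakdown and pool cleansing, 5 fell and 2 rose (median -0.027). DCTPP1, which hydrolyses dCTP and its modified forms, fell by 0.66 (37.0 ± 4.5 CPM in siBYSL and 58.5 ± 4.9 CPM in siNC), and NT5C3A (-0.29), NT5E (-0.21) and NT5C2 (-0.20) fell less, while DNPH1, which cleaves hydroxymethyl-dUMP, rose by 0.50 and NT5M, a mitochondrial deoxynucleotidase, by 0.69. Of 7 tested transporters, SLC29A1 fell by 0.15 and SLC29A3 rose by 0.45, with 5 not passing.

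**Figure D5:**
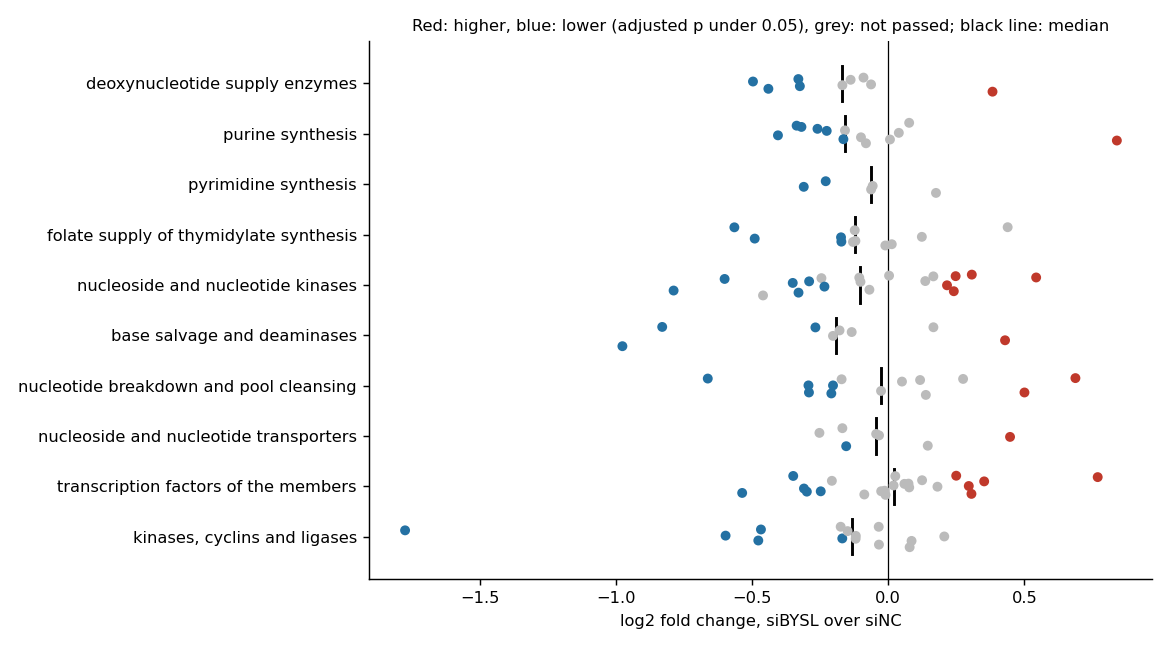
Log2 fold change, siBYSL over siNC (horizontal axis), of the 9 genes (top row) and of the genes in 9 lists; red points were higher and blue points lower at an adjusted p under 0.05, grey points did not pass, and the black line is the median. Most coloured points of the folate and purine lists lie below 0, and those of the transcription factors lie on both sides.

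Of 22 transcription factors and partners known to act on these genes, 5 rose and 5 fell (22.7% each, near the 18.5% and 18.4% of all genes tested), with a median of 0.023. E2F1, an activator of TYMS, RRM2 and TK1, stood at 73.2 ± 4.5 CPM in siBYSL and 73.9 ± 0.68 CPM in siNC (SD, n = 3 each; edgeR adjusted p = 0.877), and E2F2, E2F3, E2F7, E2F8 and FOXM1 did not pass either. The E2F genes that fell were E2F5 (-0.54), E2F4 (-0.31) and E2F6 (-0.30), which are known mainly as repressors. The subunits of NF-Y, whose CCAAT boxes are shown above, were split: NFYC fell by 0.35 and NFYA fell by 0.25, and NFYB rose by 0.31. Of the factors that fell, E2F6 and NFYA carry a guide-seed heptamer, and E2F4, E2F5 and NFYC do not. RBL1, a pocket protein that holds E2F in check, rose by 0.35, MYBL2 by 0.30 and TFDP2 by 0.25.

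Another list held 14 genes that act on the member proteins or on S-phase entry: kinases, cyclins, ligase genes and the inhibitor gene CDKN1A. Of these, 5 fell (35.7%, beside 18.4% of all genes tested) and 0 rose (beside 18.5%), with a median of -0.13. Besides CDKN1A, the genes that fell were CCNE1, cyclin E1 (-0.60), its partner CDK2 (-0.47), SKP2 (-0.48) and CDK1 (-0.17). CCNF, whose product marks RRM2 for destruction in G2, stood at 28.6 ± 0.78 CPM in siBYSL and 31.7 ± 0.84 CPM in siNC and did not pass (edgeR adjusted p = 0.0706). FZR1, an activator of the ligase that degrades TK1 and RRM2 on mitotic exit, did not pass (-0.12, edgeR adjusted p = 0.117). ATR and CHEK1, which control RRM2 under replication stress, did not pass either (ATR -0.18, CHEK1 -0.034). Over all 9 lists, 9 of 37 genes that fell, 1 of 15 that rose and 7 of 60 that did not pass carried a guide-seed heptamer. Among all tested genes with a 3′ UTR, the shares were 19.1% of those lower, 9.03% of those higher and 10.2% of those not called.

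Among 9932 genes of at least 10 CPM on average, those whose log2 CPM followed a called member most closely over the 6 libraries were listed as a description; over 2 groups such a correlation largely follows the difference between them. TYMS was closest to TSPYL2, ANXA3 and LSR (Pearson r from 0.9994), RRM2 to PPP1R2, UBE2V1 and ARMC8 (r from 0.9986), and SAMHD1 to ARHGAP23, EPN2 and AP2A1 (r from 0.9986). RRM2B was closest to NADK, TBC1D5 and PTX3 (r from 0.9979), and TK1 to SSBP1 and 2 genes with clone names (r from 0.9968). Among the members themselves, TYMS and SAMHD1 (r = 0.99) and TYMS and RRM2 (r = 0.98) were the closest pairs, while RRM2B ran opposite to TK1 (r = -0.97).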

How the data were processed

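The authors deposited unnormalized gene counts, 1 column per library, for poly(A) RNA from MDA-MB-231 cells (directional libraries, 150 nt paired-end reads, per the labels' protocols). Per the submitters' processing notes, HISAT2, DESeq2 and build GRCh38.p13 were used, in roles not stated; how counting was done, with which strand setting and annotation, is not given in the sources used here. Counts were filtered with filterByExpr by group, scaled with TMM factors and tested, siBYSL against siNC, with edgeR 4.0.16 (quasi-likelihood F test, robust, no covariates) in R 4.3.3, with Benjamini-Hochberg adjustment over 16412 genes. The SE is the size of the log2 fold change over the square root of F. Fold changes are log2; ratios used log2 CPM with a prior count of 2. Fits were tested on simulated data.

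The labels call the 3 libraries of a group biological replicates; p-values describe the spread between cultures of 1 line. The common biological coefficient of variation was 0.0649. Members and lists were chosen with earlier results of these data known. Named genes were the 9 members, BYSL, list genes that passed the test or share a reaction with a member, genes overlapping or resembling a member, and the 3 closest genes by correlation per called member; a few list genes are counted but not reported by name here. Lengths, coordinates and 3′ UTRs came from GENCODE 29 (GRCh38), promoters from RefSeq. The 15 alternatives were library totals, upper-quartile factors, DESeq2 size factors, 2 filters, the DESeq2 1.42.0 Wald test, limma-voom (limma 3.58.1), a replicate block, each library left out and mitochondrial transcripts left out, and for ratios another prior count. Scripts ran in Python 3.11.15 with NumPy 2.4.6, pandas 2.3.3, SciPy 1.17.1 and Matplotlib 3.10.9.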

Additional observations from a re-analysis of the deposited data

How the results depend on the processing

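TYMS, RRM2, TK1, SAMHD1 and RRM2B kept their direction and their call in all 15 alternative settings; the highest adjusted p among them was 0.04, for TK1 without siNC 1. The count of members called lower ran from 4 to 6 and of members called higher stayed at 1 when single libraries were left out, and the count over all genes ran from 4226 to 8004, against 6059 with all libraries. DCK changed sign with library totals (0.017 on the log2 scale) and without siBYSL 3 (0.064), and ran from -0.17 to 0.064 as single libraries were left out. DTYMK and DUT passed the test without siBYSL 3, and DTYMK also with no filter. The 5 ratios kept their direction in all 8 settings tried for each, including a prior count of 0.5. Replicate numbers did not pair the libraries: deviations of same-numbered libraries from their group means correlated at -0.52, 0.28 and -0.041 over 9932 genes. Between differently numbered libraries, r ran from -0.51 (siBYSL 3 with siNC 2) to 0.52 (siBYSL 3 with siNC 1), and was also 0.52 for siBYSL 1 with siNC 2. A block by replicate number does not model this shared variation. A fit with the replicate number as a block called 5566 genes over all, with 4 members lower and 1 higher. Each of the 9 genes had 824 counts or more in every library.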
